A study of Homo sapiens with 3 samples.

Results

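Chromatin remodeller genes were examined as a group in the human cholangiocarcinoma (bile duct cancer) line HuCCT1 for peaks of Strawberry Notch 1 (SBNO1) and of TATA-box binding protein associated factor 4 (TAF4). The members were the protein-coding genes of GENCODE 44 with symbols that start with CHD and a digit, with SMARC, with ARID or with INO80. By symbol 40 genes matched, and 39 of them had a start site of a protein-coding transcript (transcription start site, TSS), out of 19689 such genes. They fell into 11 CHD, 13 SMARC, 10 ARID and 5 INO80 genes. The rule goes by symbol. It also takes in 7 ARID proteins that are not SWI/SNF subunits, and CHD9NB, which is no remodeller by name. Remodeller genes below means all members by symbol. The remaining gene, the readthrough gene INO80B-WBP1, had no protein-coding TSS and was counted nowhere.

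The data were 3 chromatin immunoprecipitation sequencing (ChIP-seq) peak lists, 1 each for an antibody against SBNO1, an antibody against TAF4 and control immunoglobulin (IgG), all from HuCCT1 cells, for which the labels name no treatment. By the methods of the study, replicate immunoprecipitates were combined into 1 library per antibody, so no spread between replicates could be measured and no test was made. The lists held 16147 SBNO1, 12763 TAF4 and 1598 IgG peaks. The shares below carry exact 95% Clopper-Pearson intervals, which cover counting error only, and the number of reads behind a peak is unknown because a peak list holds none. A peak was counted at a gene when its nearest edge lay within 1 kb of any of the gene's TSS, and is called a promoter peak. Of 6 epithelial genes (KRT7, KRT19, EPCAM, SOX9, KRT8 and KRT18), 5 had a promoter peak of SBNO1 and 6 of TAF4, against 25.7% and 31.9% of all genes. Neither protein had one at 4 hepatocyte (ALB, APOA1, TTR and CYP3A4) or 4 leukocyte marker genes.

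Chromatin remodellers use ATP to slide, evict or exchange nucleosomes, and so open or close promoters to the transcription machinery. The main families are SWI/SNF (BAF and PBAF), whose subunits carry most SMARC symbols and some ARID symbols, ISWI, CHD (which includes the ATPases of the NuRD deacetylase complex) and INO80. SWI/SNF subunits, ARID1A above all, are recurrently mutated in cholangiocarcinoma. TAF4 is a subunit of TFIID, the general transcription factor that assembles at promoters, whereas SBNO1 is a helicase-like nuclear protein named after a Notch pathway gene of the fruit fly.

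Of 20 stretches bound by both proteins and read outside exons, 4 are printed as examples, 5′ to 3′ along the gene. CHD1, SMARCD2 and ARID1A are the members with the top SBNO1 peak of their family, where peaks tied at the highest score of 1000 were ordered by width (ARID1A 482 bp, ARID3B 481 bp), and ARID4B has a promoter that points in both directions. Each is the longest part, up to 300 bases, of the overlap of the SBNO1 and TAF4 peaks that lies outside every exon of a protein-coding transcript, from the GRCh38 reference. Capitals mark GGGCGG (the KLF/SP box), CCAAT (the NFY box) and CCGGAA (the ETS core), read on both strands.
CHD1 (chr5:98929290-98929589, minus strand): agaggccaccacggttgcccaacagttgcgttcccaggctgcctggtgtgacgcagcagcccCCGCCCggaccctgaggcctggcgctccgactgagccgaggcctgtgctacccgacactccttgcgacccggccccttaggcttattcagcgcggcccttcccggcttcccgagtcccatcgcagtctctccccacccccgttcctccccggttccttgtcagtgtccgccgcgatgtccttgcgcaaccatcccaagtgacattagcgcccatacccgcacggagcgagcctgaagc
SMARCD2 (chr17:63843066-63843223, minus strand): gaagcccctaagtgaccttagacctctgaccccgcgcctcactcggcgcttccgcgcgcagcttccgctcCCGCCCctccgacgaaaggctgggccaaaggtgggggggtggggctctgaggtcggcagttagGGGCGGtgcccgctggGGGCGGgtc
ARID1A (chr1:26695452-26695751, plus strand): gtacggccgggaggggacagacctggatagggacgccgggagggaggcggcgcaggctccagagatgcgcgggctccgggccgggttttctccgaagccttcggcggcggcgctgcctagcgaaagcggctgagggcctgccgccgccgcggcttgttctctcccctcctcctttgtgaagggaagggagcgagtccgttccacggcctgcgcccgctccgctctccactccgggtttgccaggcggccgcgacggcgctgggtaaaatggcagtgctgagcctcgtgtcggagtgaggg
ARID4B (chr1:235328220-235328398, minus strand): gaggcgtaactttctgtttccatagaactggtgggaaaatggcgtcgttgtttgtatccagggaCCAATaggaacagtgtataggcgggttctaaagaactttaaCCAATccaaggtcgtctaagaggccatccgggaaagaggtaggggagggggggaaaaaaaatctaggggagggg
The SMARCD2 stretch held 3 KLF/SP boxes, the CHD1 stretch 1, and the ARID1A stretch none of the 3 motifs. The ARID4B stretch, with a GC content of 49.2%, held 2 NFY boxes, against GC contents of 67.0% to 71.5% in CHD1, SMARCD2 and ARID1A. Other shared stretches of the same genes, not printed, differed from these. Another ARID4B stretch had a GC content of 57.5%, with 1 KLF/SP box and no NFY box. Further ARID1A stretches had GC contents of 56.0% and 56.5%. Over all 20 stretches, KLF/SP boxes were in 14, NFY boxes in 6 and the ETS core in 3. The shared INO80E stretch lay wholly in an untranslated exon and is not printed.

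Promoter peaks of SBNO1 and of TAF4 were found at most of the remodeller genes. SBNO1 had a promoter peak at 21 of 39 members (53.8%, 95% interval 37.2 to 69.9%), where all protein-coding genes gave 25.7%. TAF4 had one at 24 of 39 (61.5%, 44.6 to 76.6%), against 31.9% of all genes. For both proteins the share in all genes lay below the interval of the members. IgG had a promoter peak at 1 member (2.56%, 0.0649 to 13.5%), against 1.41% of all genes. Counting only peaks at or above the median score of their list left SBNO1 at 9 and TAF4 at 13 members (23.1%, 11.1 to 39.3%, and 33.3%, 19.1 to 50.2%). All genes then gave 13.1% and 19.6%, which lie inside these intervals.

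Both proteins were found at 18 members (46.2%, against 22.6% of all genes). These were CHD1, CHD2, CHD4, CHD8, SMARCA2, SMARCA5, SMARCAL1, SMARCD1, SMARCD2, ARID1A, ARID2, ARID3B, ARID4A, ARID4B, ARID5B, INO80, INO80B and INO80E. CHD9, SMARCAD1 and SMARCE1 had SBNO1 without TAF4 (7.69%, against 3.08%), and CHD1L, CHD6, SMARCA4, SMARCB1, SMARCC1 and INO80D had TAF4 without SBNO1 (15.4%, against 9.29%). With both lists cut to the same length, 16 members had SBNO1 (41.0%, against 20.4% of all genes), 15 had both and 1 had SBNO1 without TAF4. The SBNO1 calls lost were those of CHD4, CHD9, SMARCAD1, SMARCD1 and ARID5B. In the full lists the other 12 members had neither (30.8%, 17.0 to 47.6%, against 65.0%): CHD3, CHD5, CHD7, CHD9NB, SMARCA1, SMARCC2, SMARCD3, ARID1B, ARID3A, ARID3C, ARID5A and INO80C. Given one protein, the other was found about as often as in all genes. TAF4 was present at 18 of 21 SBNO1 members (85.7%, 63.7 to 97.0%; all genes 88.0%) and SBNO1 at 18 of 24 TAF4 members (75.0%, 53.3 to 90.2%; all genes 70.9%).

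**Figure D1:**
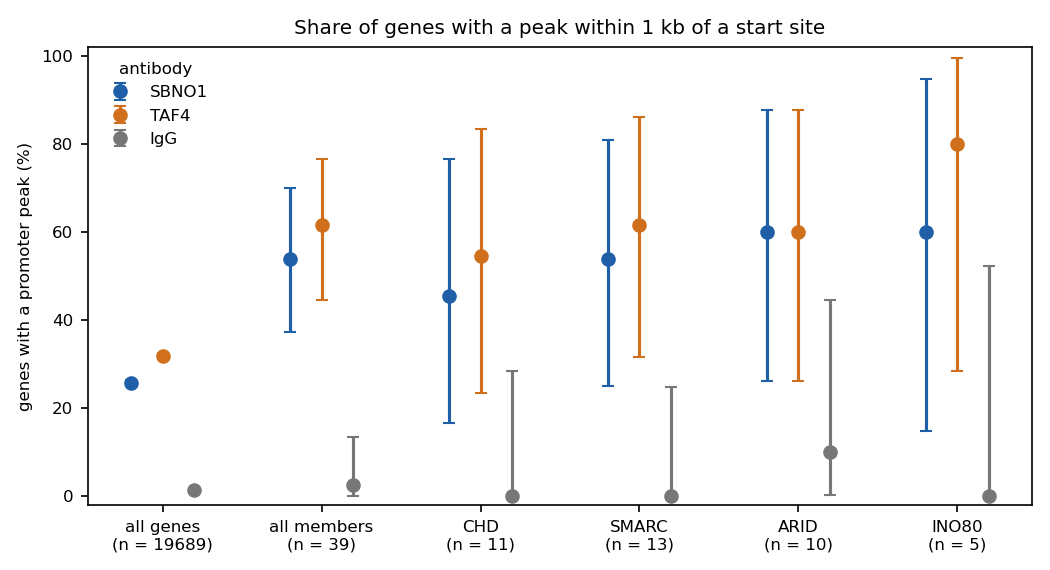
Share of genes (%) with a promoter peak of SBNO1, TAF4 or IgG, for all 19689 protein-coding genes, the 39 remodeller genes and each family, with exact 95% intervals as bars. The SBNO1 and TAF4 points of the 39 genes (53.8% and 61.5%) lie above those of all genes (25.7% and 31.9%), and the intervals of the 4 families overlap each other.

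The 4 families did not differ from each other beyond their counting intervals. SBNO1 peaks lay at 5 of 11 CHD, 7 of 13 SMARC, 6 of 10 ARID and 3 of 5 INO80 genes. TAF4 peaks lay at 6 CHD, 8 SMARC, 6 ARID and 4 INO80 genes. Single families were mostly not separated from all genes. For SBNO1 the 25.7% of all genes lay inside the CHD (16.7 to 76.6%), SMARC (25.1 to 80.8%) and INO80 (14.7 to 94.7%) intervals. It lay just below the ARID interval (26.2 to 87.8%). For TAF4 the 31.9% of all genes lay inside the intervals of all 4 families. In the ARID family the same 6 genes carried both proteins and the other 4 neither, whereas the SMARC family held 5 genes with only 1 of the proteins.

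Among the CHD ATPases, SBNO1 and TAF4 met at CHD1 and CHD2, a pair that works with elongating RNA polymerase II, at the NuRD ATPase CHD4 and at CHD8, a regulator of Wnt target genes. The CHD1 peaks were among the widest in either list of promoter peaks. The SBNO1 peak of 1250 bp (chr5:98928623-98929872) and the TAF4 peak of 1420 bp (chr5:98928596-98930015) both scored 1000, the highest value a deposited score takes, and both covered the single TSS. In width they stood at percentiles 99.4 and 99.6 of the promoter peaks of their list. CHD1 lies on chromosome 5, where 40.4% of genes had an SBNO1, 43.9% a TAF4 and 3.33% an IgG promoter peak. The part of the chromosome in the CHD1 peaks was not tested. CHD3 and CHD5, the other NuRD ATPases, had no promoter peak of either protein, and the nearest SBNO1 peaks lay 24.0 and 19.2 kb from their TSS. CHD7, which is required for neural crest development, had none either, with SBNO1 168 kb and TAF4 26.3 kb away.

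CHD6 and CHD9 are close relatives of CHD7 and CHD8 and each carried 1 of the proteins. The TAF4 peak of CHD6 (chr20:41618372-41618797, score 525) covered 2 of its TSS, and the nearest SBNO1 peak was 75.0 kb away. The SBNO1 peak of CHD9 (chr16:53099639-53100091, score 515) lay in an intron, 479 bp from an internal TSS and 44.6 kb from the canonical one. The nearest TAF4 peak was 1722 kb from any TSS of CHD9. The SBNO1 call of CHD9 was lost with both lists cut to the same length. The gene lies on chromosome 16, where 8.19% of all genes had an SBNO1 and 18.9% a TAF4 promoter peak, and its neighbour CHD9NB had no peak of either.

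The 12 SWI/SNF members of the list (2 ATPases, 7 core and accessory SMARC subunits and 3 ARID subunits) had SBNO1 at 6 and TAF4 at 8. In all genes the shares were 25.7% and 31.9%. The ATPases differed. SMARCA2 (BRM) carried both proteins at its canonical promoter, with an SBNO1 score of 595 and a TAF4 score of 1000. SMARCA4 (BRG1), the alternative ATPase of the same complexes, had a TAF4 peak (chr19:10960620-10960967, score 598) and no SBNO1 peak within 32.1 kb of a TSS. The canonical SMARCA2 SBNO1 peak and the SMARCA4 TAF4 peak stood at score percentiles 16.3 and 8.99 of the promoter peaks of their lists. Counting only peaks at or above the list median, SMARCA2 lost its SBNO1 call and SMARCA4 its TAF4 call. SMARCA2 has 43 TSS and SMARCA4 30.

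Among the core subunits, SMARCD1 and SMARCD2 carried both proteins, and SMARCD2 had a score of 1000 for each (SBNO1 chr17:63842722-63843232, TAF4 chr17:63842482-63843223). SMARCB1, the subunit lost in rhabdoid tumours, had a narrow TAF4 peak of 228 bp (chr22:23787326-23787553, score 1000) whose near edge lay 299 bp downstream of the nearest TSS, and SBNO1 was 47.0 kb away. The scaffold subunit SMARCC1 had a TAF4 peak over its TSS (chr3:47781802-47782369, score 724), with SBNO1 401 kb away. Its paralog SMARCC2, and SMARCD3, a subunit known from heart and neurons, had neither. SMARCE1, the HMG-box subunit, was the reverse case: an SBNO1 peak (chr17:40647766-40648084, score 786) covered 13 of its TSS, and TAF4 was 124 kb away.

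Of the ARID subunits of SWI/SNF, ARID1A and the PBAF subunit ARID2 carried both proteins and ARID1B neither, with the nearest SBNO1 peak 348 kb and the nearest TAF4 peak 558 kb from its TSS. The ARID2 peaks were those farthest from a TSS among the nearest peaks of bound members: their near edges lay 609 bp (SBNO1) and 623 bp (TAF4) upstream. No member had its nearest peak just outside the 1 kb reach. The closest unbound cases were ARID3A for SBNO1 (16.5 kb) and ARID3C for TAF4 (8.60 kb). Between 1 and 3 kb lay the nearest SBNO1 peak of 3.61% of all genes without an SBNO1 promoter peak and the nearest TAF4 peak of 2.24% of all genes without TAF4.

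ISWI was represented by SMARCA5 (SNF2H), which carried both proteins (SBNO1 score 706, TAF4 score 747), and SMARCA1 (SNF2L), which had none within 322 kb for SBNO1 and 382 kb for TAF4. SMARCA1 lies on chromosome X, where 10.9% of genes had an SBNO1 and 17.4% a TAF4 promoter peak. The 3 remodelling enzymes known from DNA repair each fell in another class. SMARCAL1, an annealing helicase at stalled replication forks, had both (SBNO1 score 714, TAF4 score 833). SMARCAD1, which acts in DNA end resection and heterochromatin upkeep, had SBNO1 only (chr4:94207407-94208159, score 541, with TAF4 198 kb away). This call was lost with both lists cut to the same length. CHD1L (ALC1), which is recruited by poly(ADP-ribose), had TAF4 only (chr1:147242483-147242922, score 632, with SBNO1 69.9 kb away).

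In the INO80 complex, the ATPase INO80 and the subunits INO80B and INO80E carried both proteins. INO80 had an SBNO1 score of 766 and a TAF4 score of 1000, and INO80B scores of 822 and 1000. INO80E had an SBNO1 score of 1000 (chr16:29996034-29996257) and a TAF4 score of 568 (chr16:29995887-29996310), and both peaks also lay within reach of its divergent neighbour HIRIP3. INO80D had a TAF4 peak (chr2:206085803-206086341, score 610) without SBNO1, which was 73.1 kb away. INO80C had no promoter peak, and its nearest SBNO1 peak was 508 kb away, the farthest among the members without one. It lies on chromosome 18, where 6.87% of genes had an SBNO1 and 16.0% a TAF4 promoter peak.

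Among the other ARID proteins, ARID3B (a transcription factor of the Bright group), the Sin3-associated pair ARID4A and ARID4B, and ARID5B carried both proteins. ARID3A, ARID3C and the RNA-binding ARID5A carried neither. ARID4A was the only member with an IgG promoter peak (chr14:58298153-58298531, score 642), which lay inside its SBNO1 peak (chr14:58297601-58298513, score 957) except for the last bases and inside its TAF4 peak (chr14:58297679-58298613, score 1000). The part of nonspecific signal in the ARID4A peaks was not tested. At ARID4B a TAF4 peak of 1190 bp (chr1:235328085-235329274, score 1000) spanned 2 separate SBNO1 peaks with scores of 1000 and 893, and the divergent gene GGPS1 and another annotated gene lay within reach of all 3 peaks.

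**Figure D2:**
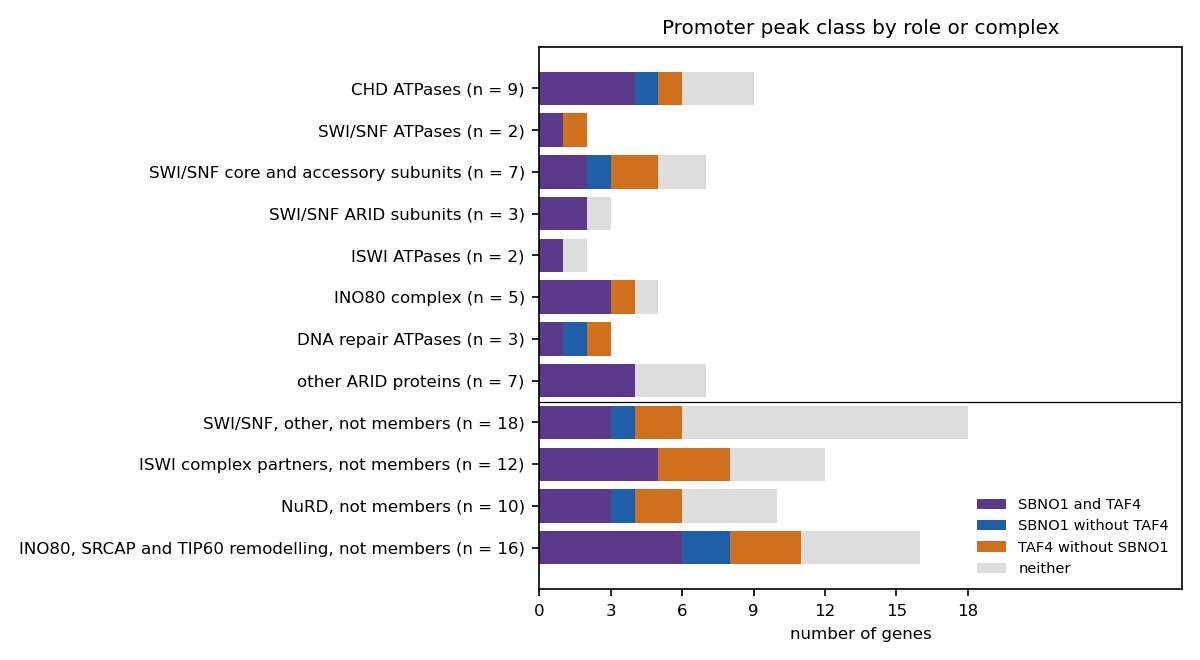
Number of genes with promoter peaks of both proteins, SBNO1 without TAF4, TAF4 without SBNO1 or neither, for the roles of the members (above the line; CHD9NB, not a remodeller by name, is left out) and for subunits of the same complexes whose symbols are outside the rule (below it). The CHD ATPases held 4 genes with both proteins out of 9, and the SWI/SNF subunits outside the rule 3 out of 18. Of all genes, 22.6% had both.

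Of 56 subunits of the same complexes whose symbols fall outside the rule, 21 had SBNO1 (37.5%) and 27 TAF4 (48.2%). All genes gave 25.7% and 31.9%. The intervals of the members, 37.2 to 69.9% and 44.6 to 76.6%, hold the subunit shares, for SBNO1 close to the lower limit. IgG was at 1 subunit (RSF1, 1.79%, against 1.41% of all genes). By complex, SBNO1 and TAF4 lay at 4 and 5 of 18 SWI/SNF subunits, at 5 and 8 of 12 ISWI partners, at 4 and 5 of 10 NuRD subunits and at 8 and 9 of 16 INO80, SRCAP and TIP60 subunits. The SWI/SNF shares (22.2% and 27.8%) lay close to those of all genes, and the shares of the other lists were higher. These lists are small and no intervals were made for them, so no difference between complexes can be given. In SWI/SNF, DPF2 had SBNO1 without TAF4, and PHF10 and BICRAL had TAF4 without SBNO1. In NuRD, the deacetylase HDAC1 and MBD3 had TAF4 only and MTA3 SBNO1 only. Among the ISWI partners, BPTF, RBBP4 and BAZ1A had TAF4 only, each with a score of 1000. The ATPases SRCAP and EP400 had SBNO1 only, with scores of 1000 and 678, and the other 3 subunits of that list with differing calls had TAF4 only.

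Where both proteins were present, their peaks lay on top of each other. At all 18 members with both, at least 1 SBNO1 peak overlapped a TAF4 peak (all genes 98.6%), which gave 22 overlapping pairs. The shared stretch took a median of 91.9% of the SBNO1 peak and 85.0% of the TAF4 peak, against 92.2% and 83.8% in all genes. The centres were 92.5 bp apart in the median, against 57.0 bp in all genes, and the SBNO1 centre was upstream in 10 of 22 pairs. The signed difference had a median of 45.5 bp and ran from -432 to 265 bp, and between the 5′ edges of the peaks the median was -4.50 bp, so no side can be given. Both extremes came from sites with split peaks, ARID1A and ARID4B.

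**Figure D3:**
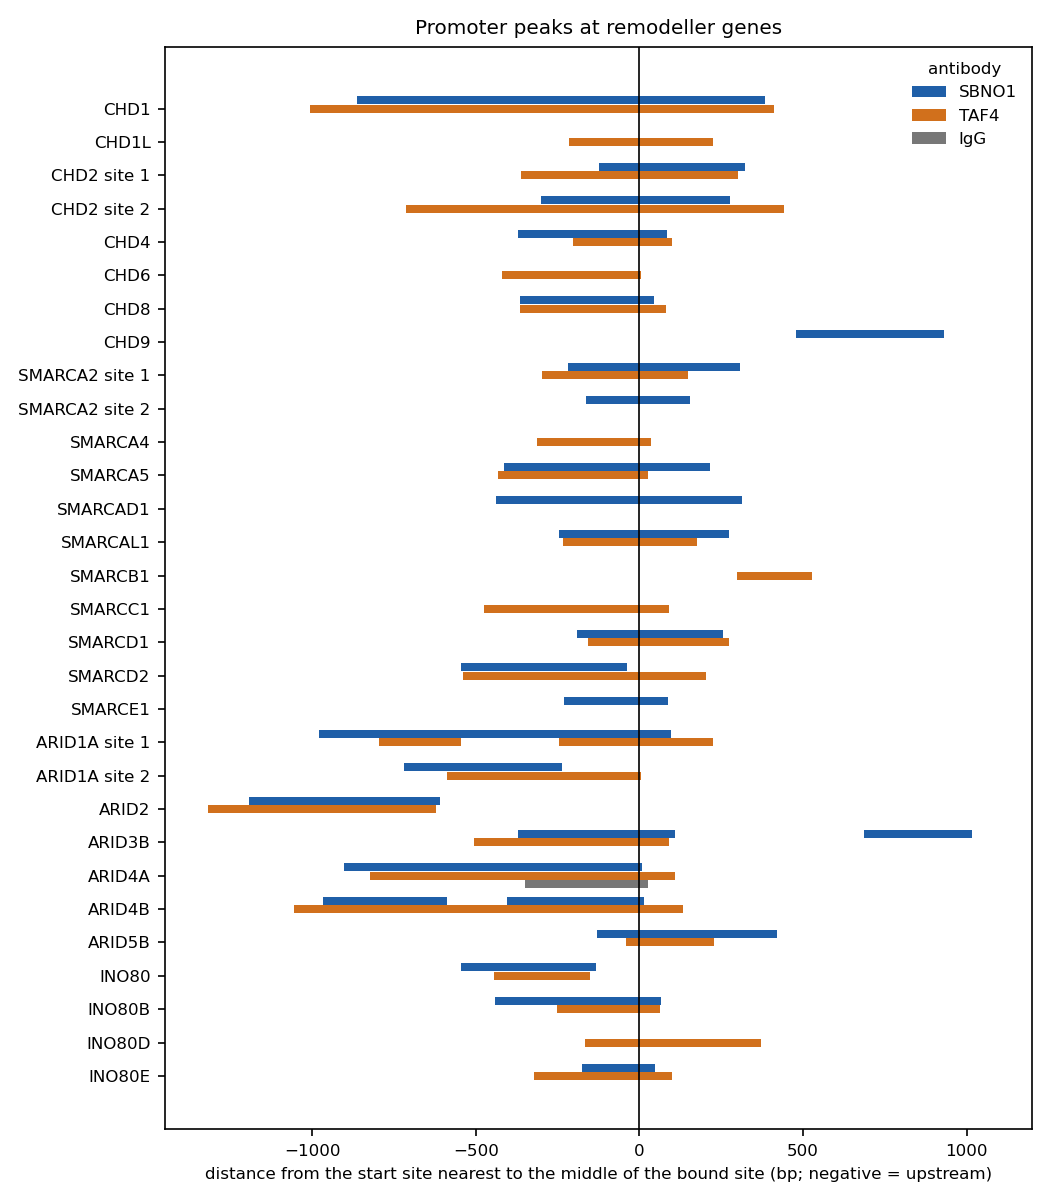
Promoter peaks of SBNO1, TAF4 and IgG at the 27 bound members, drawn to scale as the distance (bp) from the TSS nearest to the middle of each bound site, with 1 row per site. SBNO1 and TAF4 bars overlap at all 18 genes with both proteins. The CHD9 and SMARCB1 bars lie downstream of the TSS, and the ARID2 and INO80 bars upstream of it.

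A TSS was covered by 20 of 26 SBNO1 and 23 of 27 TAF4 member peaks. By gene this was 18 of 21 SBNO1 members (85.7%, all SBNO1 genes 84.6%) and 21 of 24 TAF4 members (87.5%, all TAF4 genes 90.4%). The centres lay upstream of the nearest own TSS in the median (-85.5 bp for SBNO1 and -138 bp for TAF4). No centre fell in a coding exon. The canonical TSS was within reach at 19 of 21 SBNO1 members (90.5%, against 90.6% of all SBNO1 genes) and at 23 of 24 TAF4 members (95.8%, against 93.9%). The exceptions were ARID5B, where both proteins sat at a TSS 147 kb inside the gene (SBNO1 chr10:62049082-62049632, score 488; TAF4 chr10:62049170-62049439, score 959), and CHD9. At CHD4 the TSS covered was not the canonical one, whose distance from the peak edges was 966 bp (SBNO1) and 953 bp (TAF4).

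CHD2, SMARCA2 and ARID1A had promoter peaks at 2 sites more than 1 kb apart. These were 3 of 39 members (7.69%, 1.62 to 20.9%), an interval that holds the 2.16% of all genes. The 3 genes have 8, 43 and 7 TSS, against a median of 3 in all genes, and the part of TSS number was not tested. In CHD2 both proteins lay at the canonical TSS (SBNO1 score 912, TAF4 784) and again at an internal TSS (SBNO1 chr15:92904173-92904749, score 1000; TAF4 chr15:92903760-92904916, score 927). In ARID1A both lay at the canonical promoter (SBNO1 chr1:26695296-26695777, score 1000; TAF4 chr1:26695427-26696019, score 896) and at an upstream TSS, where 1 SBNO1 peak of 1077 bp (score 713) spanned 2 TAF4 peaks that scored 1000 each. SMARCA2 differed between its sites: TAF4 was present at the canonical promoter alone, and the internal site, 143 kb downstream, had SBNO1 only (chr9:2158311-2158628, score 744) over 11 annotated TSS.

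**Figure D4:**
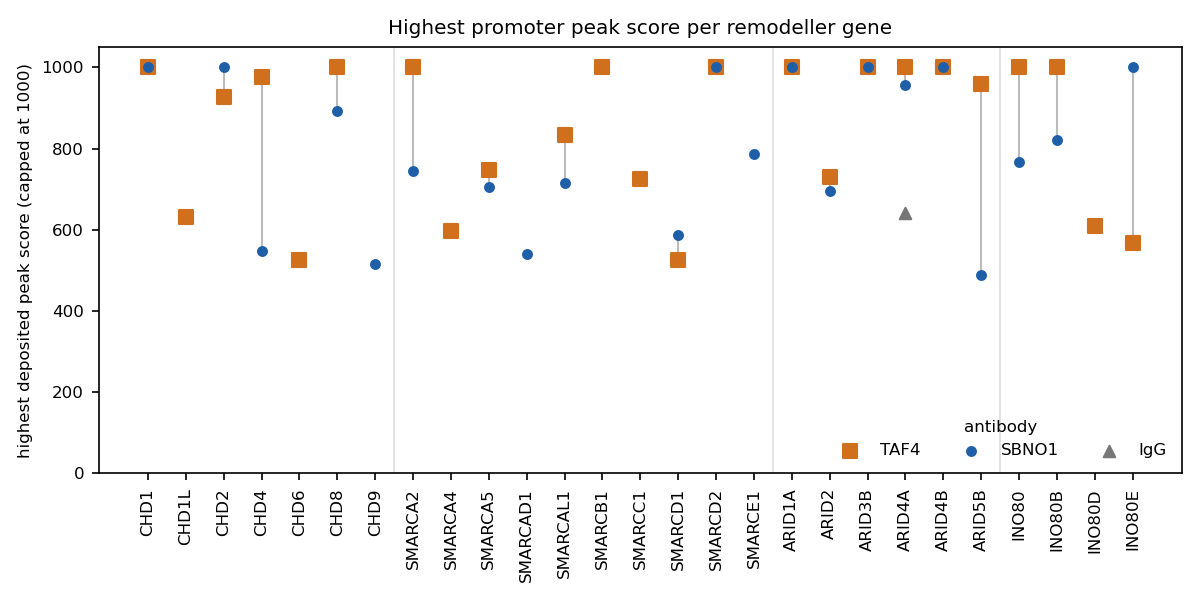
Highest deposited score (no unit, capped at 1000) of the SBNO1, TAF4 and IgG promoter peaks of each bound member, in the order of the 4 families. Among the 6 genes with TAF4 alone, SMARCB1 scores 1000 and the others 525 to 724.

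The deposited scores rank peaks within a list, and their scaling is not given in the sources used here, so SBNO1 and TAF4 scores are not compared with each other. Member SBNO1 promoter peaks had a median score of 776, against 850 over all SBNO1 promoter peaks, and 7 of 26 were at 1000 (26.9%, against 32.2%). Member TAF4 peaks had a median of 959, against 1000, and 12 of 27 were at 1000 (44.4%, against 50.1%). The median widths of the member peaks were of 482 bp (SBNO1) and 448 bp (TAF4), against 420 and 418 bp.

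The scores also varied with the class of the gene. The median of the highest TAF4 score was 621 at the 6 members with TAF4 alone (525 to 1000) and 1000 at the 18 with both (525 to 1000), so the ranges overlapped. In all genes these medians were 896 and 1000. For SBNO1 the median was 541 at the 3 members with SBNO1 alone (515 to 786) and 857 at the 18 with both (488 to 1000), against 770 and 888 in all genes.

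Remodeller genes were longer and had more TSS than all protein-coding genes. Their median span was 70.9 kb against 27.3 kb, and their median number of TSS 5 against 3. By class of TSS number, SBNO1 lay at 3 of 5 members with 1 TSS (all genes 15.3%), 5 of 14 with 2 to 4 (24.5%), 8 of 12 with 5 to 9 (33.9%) and 5 of 8 with 10 or more (41.9%). For TAF4 these counts were 4 (19.1%), 6 (30.9%), 9 (41.7%) and 5 (50.5%). These classes are small: the share of all genes lay inside the interval of the members in every class but that of 5 to 9 TSS for SBNO1 (34.9 to 90.1%) and those of 1 TSS (28.4 to 99.5%) and of 5 to 9 TSS (42.8 to 94.5%) for TAF4. The part of TSS number and gene length in the shares was not tested. Members were also more often CpG-rich around the canonical TSS (GC content of 55% or more and an observed-to-expected CpG ratio of 0.6 or more within 500 bp), at 32 of 39 (82.1%) against 60.4%. Of the CpG-rich members 17 had SBNO1 (53.1%, all CpG-rich genes 32.7%) and 21 TAF4 (65.6%, 42.6%). Of the other 7 members, 4 had SBNO1 (all such genes 15.1%) and 3 TAF4 (15.5%).

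Motifs, none of which contains another, were read as plain letters on both strands in the 250 bases before to 50 bases after the canonical TSS. GGGCGG (KLF/SP) was in 71.8% of member promoters (55.1 to 85.0%; all genes 61.6%), CCGGAA (ETS) in 33.3% (19.1 to 50.2%; 22.7%) and CCAAT (NFY) in 28.2% (15.0 to 44.9%; 36.1%). TATAAA was in 1 member promoter (2.56%, 0.0649 to 13.5%; 9.65%). For all 4 motifs the share of all genes lay inside the interval of the members. TGANTCA (AP-1) was in 3 member promoters (7.69%; all genes 5.45%), and TGACGTCA (CRE) and GCATGCGC (part of the NRF1 motif) in 1 each (2.56%; 2.72% and 4.27%). AAGATGGC (part of the YY1 motif) was in 2 (5.13%; 4.06%).

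Outside promoters, the gene bodies of the members held few peaks. SBNO1 had 11 peaks in 6 genes (15.4%, against 13.7% of all genes) and TAF4 7 in 5 genes (12.8%, against 8.47%), whereas IgG had none (0 of 39 genes, upper limit 9.03%, against 1.07%). Per Mb of gene span this was 2.93 SBNO1 peaks against 3.83 in all genes, and 1.87 TAF4 peaks against 2.07. CHD2 held 3 of each, and its 3 SBNO1 peaks all overlapped TAF4. ARID5B held 3 SBNO1 peaks and no TAF4 peak, ARID1A 2 and 1, and ARID3B 1 and 1. CHD5 and ARID4B held 1 SBNO1 peak each, and ARID3A and INO80C, both without promoter peaks, 1 TAF4 peak each. The AP-1 letters were in the 200 bases around the centre of 5 of the 11 SBNO1 peaks (45.5%), against 49.1% in all gene bodies.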

How the data were processed

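The 3 peak lists (SBNO1, TAF4 and IgG ChIP-seq of HuCCT1 cells, 1 library each) were grouped by the labelled antibody. Per the methods of the study, chromatin was cut enzymatically, immunoprecipitates were pooled before sequencing, and reads were trimmed with ktrim and aligned with bowtie2. The methods name normR as the peak caller, whereas the submitters' processing notes list Bowtie2 2.5.4, Genrich 0.6.1 and GRCh38.p14, so the caller is uncertain. The threshold, the treatment of duplicates and the use of IgG as control are not given in the sources used here. The deposited score is the authors' whole number per peak, capped at 1000 with unstated scaling, and was compared only within a list.

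Peaks were unfiltered. All coordinates are 1-based on GRCh38. Start sites were the 78567 TSS of protein-coding transcripts of 19689 genes in GENCODE 44. Every gene within 1 kb of a peak edge was counted, and peaks overlapping by 1 bp or more were shared. Gene-body peaks were centred in the gene span and over 1 kb from any TSS. Scripts used Python 3.11.15, pysam 0.24.0, numpy 2.4.6 and scipy 1.17.1, and were tested on simulated peaks. The members and gene lists were chosen with earlier results of these data known. Every member was named with its class. Positions and scores were given for the top SBNO1 peak per family, members whose calls differed, members with an IgG peak and members with several sites; from the outside lists, subunits whose calls differed or that had IgG. Other score cut-offs, distances, TSS sets, list lengths and windows were tried as alternatives.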

Additional observations from a re-analysis of the deposited data

How the results depend on the processing

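Of 91 values recomputed under other settings, 73 stayed within the tolerance (1.5 times for a count, the interval for a share, the quartiles for a distance), 17 moved and 1 changed sign. The last was the median SBNO1 minus TAF4 position, 45.5 bp between centres and -4.50 bp between 5′ edges. Among the settings run, the counts of members moved with the score cut-off. With peaks at or above the median score of their list, 9 members had SBNO1, 13 TAF4, 0 IgG, 7 both and 24 neither, where 23.1% and 33.3% of members had SBNO1 and TAF4 against 13.1% and 19.6% of all genes. With peaks at the cap of 1000, 7 had SBNO1, 11 TAF4, 0 IgG, 5 both and 26 neither. Then 17.9% (7.54 to 33.5%) and 28.2% (15.0 to 44.9%) of members stood against 9.14% and 17.3% of all genes. At either cut-off the shares of all genes lay inside the intervals of the members. With SBNO1 and TAF4 lists cut to equal length, 16 members had SBNO1, 15 had both and 1 had SBNO1 without TAF4. With gene spans extended by 10 kb, the gene bodies held 17 SBNO1, 12 TAF4 and 1 IgG peaks. In windows of 500 bases on either side of the TSS, ETS, KLF/SP and NFY letters were in 53.8%, 89.7% and 56.4% of member promoters, against 39.9%, 77.1% and 63.7% of all genes. No paired analysis was possible because no antibody had a second library, so no library could be left out either. The read depth of each library is unknown, so a missing peak means that none was called, not that the protein was absent.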
